A study of Mus musculus with 10 samples.

Results

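The data described here are the response of vimentin-null neutrophils to bacterial lipopolysaccharide (LPS), measured by sequencing of polyA-selected RNA. The comparison is LPS-treated over unstimulated Vim-/- neutrophils, and all 13091 genes of its deposited table are covered. It rests on 6 of the 10 libraries of the series, 3 after 1 h with 25 ng/mL LPS and 3 without. The other 4 libraries, 2 LPS-treated and 2 unstimulated, are from Vim+/+ neutrophils. Their own response is given only where the genotypes are set side by side. They are nevertheless part of the 10-library fit behind every error and adjusted p-value, and of each gene's mean level. All cells came from mouse bone marrow of the 129-SVEV strain, immortalized as progenitors by a HoxB8 that is active only with estrogen, and were matured to neutrophils by removing estrogen in the presence of IL-3 and G-CSF. The sample labels call the vimentin-negative genotype a knockdown, whereas the methods of the study start from knockout mice. The numbers in the sample labels give 3 Vim-/- lines, 14, 2 and 35, each with an LPS and an unstimulated library, and the methods describe progenitor lines grown from single sorted cells. If each number is such a line, the libraries of a group differ by clone, and nothing in the labels ties a line to a particular animal.

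LPS, a component of the outer membrane of Gram-negative bacteria, is handed by CD14 to the receptor TLR4 and its partner MD-2 (gene *Ly96*). The receptor signals through the adaptors MyD88 and TRIF to the IκB kinases and to the MAP kinases, which release NF-κB into the nucleus and activate AP-1 factors. Within the first hour this switches on primary response genes, among them cytokines, chemokines and, as negative feedback, the inhibitors that later shut the pathway down. Neutrophils are known as an early source of TNF, of interleukin-1 and of the chemokines that draw in more neutrophils.

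Vimentin-null neutrophils responded to LPS within the hour with a small, mostly rising set of genes. Of the 12329 genes with an adjusted p-value in the deposited table, 143 (1.16%) were called, which here means a change of more than 2-fold (1 on the log2 scale) with an adjusted p under 0.05. Of these, 113 rose (0.917%) and 30 fell (0.243%). With the adjusted p alone, 186 genes rose (1.51%) and 86 fell (0.698%), so 73 rising and 56 falling genes changed detectably by less than 2-fold. The median change was larger upward than downward. Among genes whose mean normalized count over the 10 libraries of the fit (baseMean, the unit of level used here) was at least 100, 104 rose with a median log2 fold change of 1.69 and 21 fell with a median of -1.29. A log2 fold change over 2 was seen for 42 of those 104 genes, and one under -2 for 3 of those 21. Over all 10321 genes at a baseMean of at least 100 the median log2 fold change was -0.01.

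**Figure D1:**
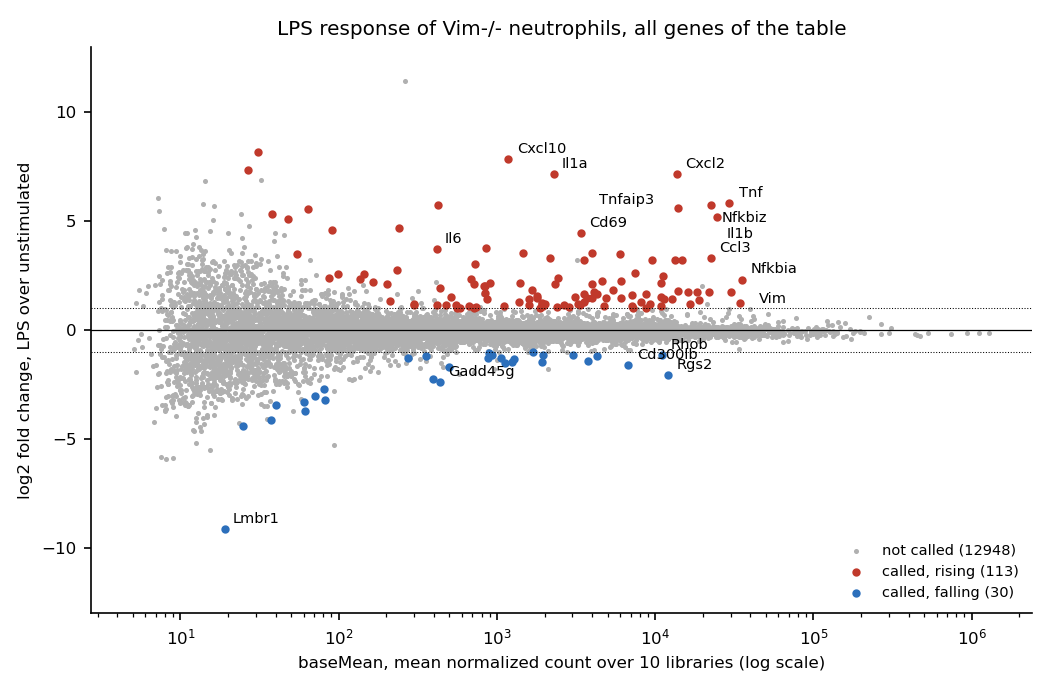
Each point is 1 of the 13091 genes, with its baseMean on the horizontal axis (log scale) and the log2 fold change of LPS over unstimulated Vim-/- neutrophils on the vertical axis. The 113 rising called genes (red) reach higher than the 30 falling called genes (blue) go low at a baseMean of at least 100, dotted lines mark a 2-fold change, and the cloud of genes not called (grey) widens below a baseMean of 100.

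No value per library is held in the table, which leaves sequencing depth unknown, and the error of each value is the standard error (SE) of the fitted log2 fold change. That error set what could be seen. The median SE was 1.22 for the 2770 genes with a baseMean under 100, 0.33 from 100 to 1000, 0.17 from 1000 to 10000 and 0.13 above. The smallest absolute Wald statistic (log2 fold change over its SE) that passed was 3.27, so a gene of median SE had to change by a log2 of 3.99, 1.09, 0.57 or 0.43 in these classes to pass. For weakly expressed genes the absence of a call is thus not the absence of a response. A further 762 genes, none with a baseMean over 16.7, carried no adjusted p and could not be called.

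The targeted gene was looked at first. *Vim* (chr2:13574311-13582826, RefSeq on GRCm38.p6 as for all gene positions), which encodes the intermediate filament itself, was lower in Vim-/- than in Vim+/+ neutrophils, with log2 fold changes of -13.56 ± 0.33, unstimulated, and -12.44 ± 0.24, with LPS, both adjusted p-values being listed as 0. Its LPS response in Vim-/- neutrophils was 0.96 ± 0.37 with an adjusted p of 0.239. The cell type was checked with marker lists. All 14 neutrophil markers were in the table, at baseMean values from 11373 to 1290830, and none passed, with log2 fold changes from -0.51 to 0.04. The 8 eosinophil markers were also present, at up to 268319 for *Prg2*, a granule protein of eosinophils, as were 7 of 8 mast cell or basophil markers, at up to 26296 for *Cpa3*. None of these passed either, with log2 fold changes from 0.03 to 1.02 and from -0.15 to 0.43. Of the monocyte or macrophage, dendritic cell, lymphoid and progenitor markers, 6 of 12, 2 of 8, 3 of 10 and 7 of 8 were in the table, and none passed. The baseMean values of these markers cover both genotypes, as does that of *Vim* itself, 39926, so they do not show levels in Vim-/- cells alone. In bulk RNA, fewer cells of a type and less RNA per cell cannot be told apart, and the part of non-neutrophil cells in the changes below was not tested.

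Secreted mediators, *Cxcl10*, *Il1a*, *Cxcl2* and *Tnf*, led the called genes of baseMean 100 or more by size of change. Of 21 measured cytokine genes, 7 rose and none fell at the 2-fold threshold (median log2 fold change 1.10), and of 11 chemokine genes 6 rose and none fell (median 3.29), against 0.917% rising among all genes tested. *Tnf* (chr17:35199367-35202007), which encodes the cytokine that activates endothelium and phagocytes, rose 57.5-fold (95% interval 47.0 to 70.3) at a baseMean of 29167. *Il1a* (chr2:129299609-129310186) and *Il1b* (chr2:129364569-129371164), the genes of the interleukin-1 cytokines that share a receptor, rose 144-fold (95% interval 99.5 to 208) and 37.0-fold (95% interval 27.3 to 50.1). They lie 54.4 kb apart on chromosome 2. A noncoding gene, *Il1bos*, overlaps *Il1b* by 1263 bases, and whether reads were counted by strand is not given in the sources used here, so the reads of the pair cannot be told apart with certainty. *Il6*, encoding a cytokine of the acute phase response, rose by 3.73 ± 0.39 on the log2 scale at a far lower baseMean of 417. Smaller rises were those of *Il12a*, a subunit shared by interleukin-12 and interleukin-35, by 2.03 ± 0.29, of *Hbegf*, a ligand of the EGF receptor, by 2.34 ± 0.52, and of *Il1f9*, which encodes interleukin-36 gamma, by 1.10 ± 0.14. The TNF family ligand *Tnfsf14* passed the test in the other direction, at -0.91 ± 0.20, which is less than 2-fold. *Il23a* had a fitted log2 fold change of 11.42 ± 4.05 and an adjusted p of 0.157, its SE being so wide that no change could be called.

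Among the chemokines, *Cxcl2* (chr5:90903899-90905938), a ligand of the neutrophil receptor CXCR2, rose 142-fold (95% interval 103 to 198). *Cxcl3*, another CXCR2 ligand, encoded 116 kb away on chromosome 5, rose by 4.69 ± 0.65 on the log2 scale at a baseMean of 239. *Ccl3* (chr11:83647843-83649378), a ligand of CCR1, rose 9.81-fold (95% interval 8.19 to 11.7). Its neighbour *Ccl4* rose by only 1.05 ± 0.28, and the RefSeq spans of the pair overlap by 755 bases. *Cxcl10*, a ligand of CXCR3, a chemokine receptor of T cells, had the highest fitted change among called genes at a baseMean of at least 100, 7.85 ± 1.62, with a wide SE, and *Ccl5* rose by 7.34 ± 1.98 at a baseMean of 26.5. By contrast the constitutive chemokine genes *Ccl6* (baseMean 118963) and *Ccl9* (baseMean 13757) had log2 fold changes of -0.23 ± 0.12 and 0.08 ± 0.11 and did not pass. *Ccl2*, encoding a monocyte attractant, did not pass either (adjusted p = 0.429).

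**Figure D2:**
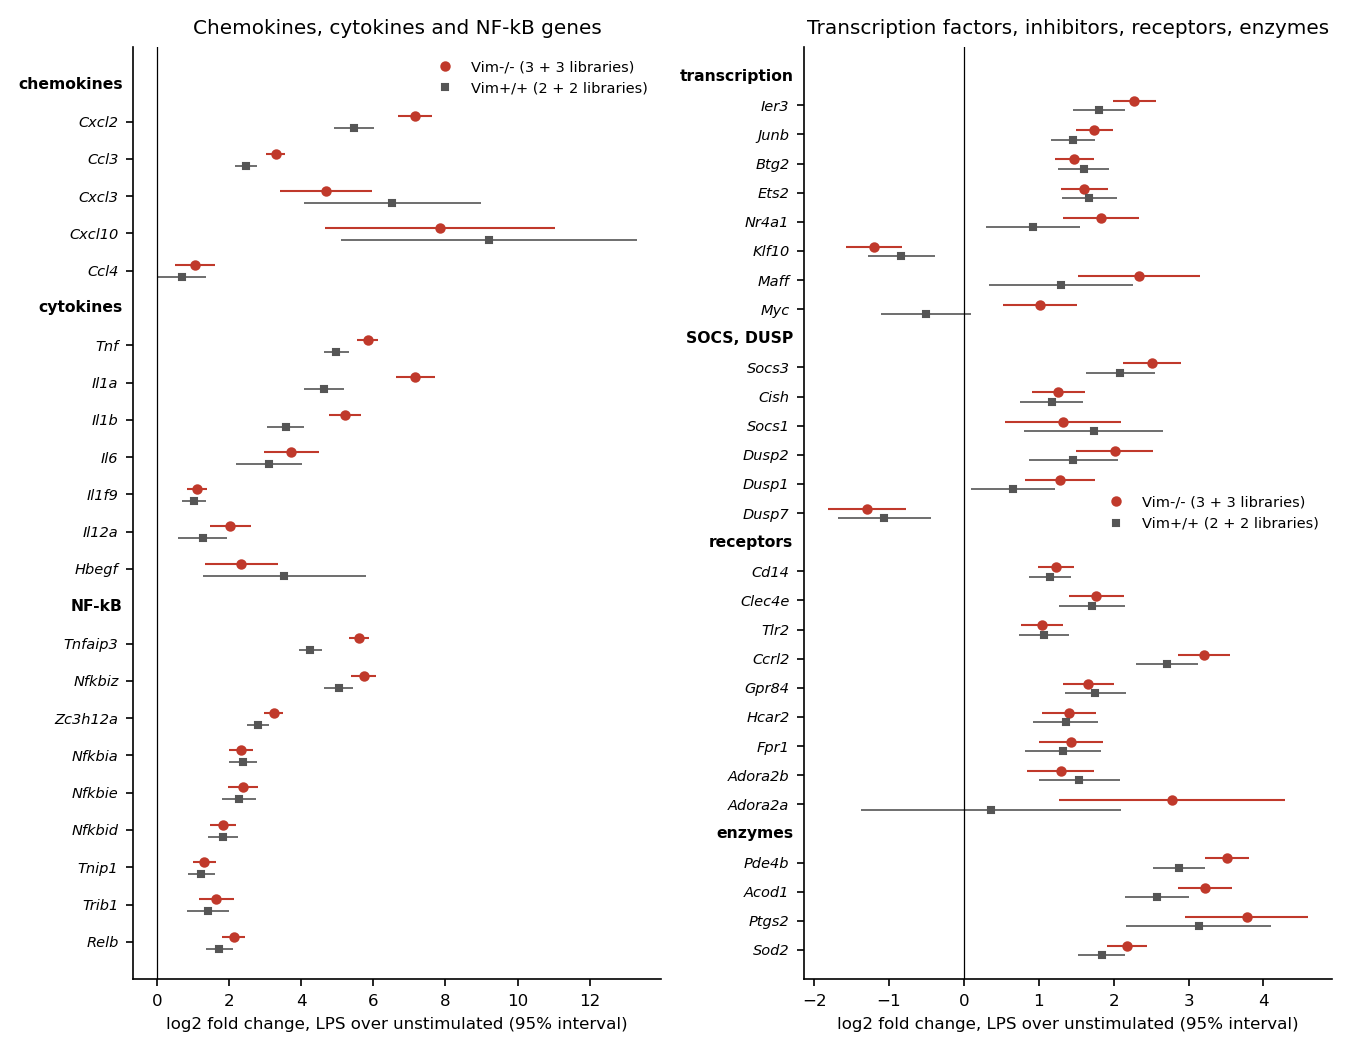
Points are log2 fold changes of LPS over unstimulated neutrophils for called genes at a baseMean of at least 100, with 95% intervals from the fitted SE. The groups of lists are named at the left. *Sod2*, of the antioxidant list, was added to the enzymes, and the other called gene of that list, *Osgin1*, is not drawn. Red circles are Vim-/- (3 LPS and 3 unstimulated libraries) and grey squares Vim+/+ (2 and 2), the panels have different scales, and the Vim-/- values are set apart from the Vim+/+ values for *Il1a*, *Il1b*, *Cxcl2* and *Tnfaip3* by the test of the difference.

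Among 17 genes listed as NF-κB feedback inhibitors, not all of which act only as inhibitors, 6 did not pass the test. Of these 17 listed genes 9 rose and none fell (median log2 fold change 1.64), against 0.917% rising among all genes tested. A further 2, *Bcl3* and *Tnfaip2*, passed below 2-fold. *Tnfaip3* (chr10:19000910-19015410), which encodes the ubiquitin-editing protein A20, rose 48.7-fold (95% interval 40.3 to 58.8) and had the largest Wald statistic of the table. *Nfkbiz*, encoding the nuclear IκBζ that helps induce a subset of NF-κB targets, rose by 5.73 ± 0.17 on the log2 scale. The classical inhibitor gene *Nfkbia* (IκBα), at a baseMean of 35437 over LPS-treated and unstimulated libraries, rose 5.02-fold (95% interval 3.97 to 6.33), and *Nfkbie* and *Nfkbid* rose by 2.38 ± 0.21 and 1.82 ± 0.18 on the log2 scale. *Tnip1*, an A20-binding protein, rose by 1.31 ± 0.16, *Trib1*, a pseudokinase, by 1.64 ± 0.25, and *Traf1*, an adaptor, by 5.32 ± 1.47 at a baseMean of 37.7. Of the 5 subunits *Relb* alone was called, at 2.13 ± 0.16. *Nfkb2* passed below 2-fold at 0.98 ± 0.16, and *Rel*, at 0.91 ± 0.32, *Nfkb1*, at 0.06 ± 0.12, and *Rela*, at 0.05 ± 0.14, did not pass.

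The promoters of 5 of the 15 rising genes with the largest Wald statistics are shown, since NF-κB and AP-1 are known to act at promoters. Each is the 250 bases before the RefSeq transcription start on GRCm38.p6, written 5′ to 3′ on the gene's strand, and capitals mark matches on either strand to the κB consensus, to GGGNNTTCC, to the AP-1 motif TGANTCA or to the CRE motif TGACGTCA, where N is any base.
Tnfaip3 promoter, chr10:19015411-19015660 (- strand): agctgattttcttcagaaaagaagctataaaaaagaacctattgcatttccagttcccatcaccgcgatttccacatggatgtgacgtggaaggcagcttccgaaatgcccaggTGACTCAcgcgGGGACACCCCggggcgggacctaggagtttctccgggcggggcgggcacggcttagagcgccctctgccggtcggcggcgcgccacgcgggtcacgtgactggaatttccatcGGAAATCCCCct
Tnf promoter, chr17:35202008-35202257 (- strand): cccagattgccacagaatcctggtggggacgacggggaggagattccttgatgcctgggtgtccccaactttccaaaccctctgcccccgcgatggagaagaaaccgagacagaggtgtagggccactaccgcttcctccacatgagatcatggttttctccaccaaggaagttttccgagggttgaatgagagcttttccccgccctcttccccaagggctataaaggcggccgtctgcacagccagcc
Cxcl2 promoter, chr5:90903649-90903898 (+ strand): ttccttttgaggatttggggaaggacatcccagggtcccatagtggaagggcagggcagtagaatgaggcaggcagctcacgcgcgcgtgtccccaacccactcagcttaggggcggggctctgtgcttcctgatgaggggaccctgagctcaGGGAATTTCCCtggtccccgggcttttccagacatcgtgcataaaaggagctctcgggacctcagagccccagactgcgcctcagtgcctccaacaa
Il1a promoter, chr2:129309973-129310222 (- strand): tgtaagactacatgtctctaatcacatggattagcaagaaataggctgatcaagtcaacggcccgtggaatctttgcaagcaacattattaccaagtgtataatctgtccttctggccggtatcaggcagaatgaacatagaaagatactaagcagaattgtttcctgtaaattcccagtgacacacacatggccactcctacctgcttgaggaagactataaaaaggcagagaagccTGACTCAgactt
Ccl3 promoter, chr11:83649379-83649628 (- strand): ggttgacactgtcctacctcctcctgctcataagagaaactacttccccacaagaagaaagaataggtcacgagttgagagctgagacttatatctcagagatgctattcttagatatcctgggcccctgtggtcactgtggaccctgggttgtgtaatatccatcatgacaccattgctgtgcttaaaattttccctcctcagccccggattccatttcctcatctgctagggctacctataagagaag
The Tnfaip3 window, that of the upstream of its 2 listed starts, held 2 κB consensus matches, the nearer of them 3 to 12 bases before the start and overlapping a GGGNNTTCC match, and a TGANTCA match. The Cxcl2 window held 2 overlapping κB consensus matches, 1 on each strand, 87 to 97 bases before the start. In the Il1a window, which lies before a start inside the gene's longest span, only TGANTCA was found, 6 to 12 bases before that start, and in the Tnf and Ccl3 windows these letters are not present, which says nothing of sites elsewhere. Of the 113 rising called genes 94 had a promoter in the table, and 21 of these (22.3%) held the κB consensus within 300 bases, from 250 before to 50 after the start, compared with 5.93% of 9778 genes of the deposited table and 5.14% of all 27025 genes with an entry. Of 25 falling called genes with a promoter, 0 held it. The share for GGGNNTTCC, which overlaps the consensus, was 14.9% of rising genes and 8.41% of the table. TGANTCA was found in 8.51% of rising genes, 12% of falling genes and 6.45% of the table and in 8.97% of all genes with an entry, which is above the share of rising genes. TGACGTCA was found in 6.38%, 4%, 3.64% and 2.03% of these sets, and GGGNNTTCC in 6.58% of all genes with an entry. These shares are descriptions, a gene with several starts counted as holding a motif if any start did, and no test was made of them.

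On the receptor side of the pathway, of 20 genes of the LPS receptor and its adaptors (median -0.04) *Cd14* alone was called, against 1.16% of all genes tested, rising 2.35-fold (95% interval 1.99 to 2.77) at a baseMean of 34555. The adaptor gene *Myd88* passed below 2-fold, at 0.47 ± 0.14. *Tlr4* had a log2 fold change of 0.23 ± 0.15, *Ly96* of -0.41 ± 0.31 and *Ticam1*, encoding TRIF, of -0.35 ± 0.22, and none of these passed. Of 19 IκB and MAP kinase genes (median 0.02) *Map3k8*, which encodes the kinase TPL2 that links the IκB kinase complex to ERK, rose 11.7-fold (95% interval 9.52 to 14.3), and *Mapkapk2* and *Ikbke* passed below 2-fold at 0.64 ± 0.12 and 0.63 ± 0.19. Among 16 other pattern recognition receptors, 2 were called. *Clec4e*, the receptor Mincle for mycobacterial glycolipid, rose by 1.76 ± 0.19, and *Tlr2*, the receptor for bacterial lipopeptides, by 1.04 ± 0.14.

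AP-1 and other immediate-early genes, not all of them transcription factors, split. Of 29 genes 7 rose and 1 fell, with a median of 0.42, where 0.917% of all genes rose and 0.243% fell. *Ier3* rose by 2.28 ± 0.15, *Junb*, an AP-1 subunit, by 1.74 ± 0.13, *Ets2* by 1.61 ± 0.16, *Btg2* by 1.47 ± 0.13, the nuclear receptor gene *Nr4a1* by 1.83 ± 0.26 and *Maff*, a small MAF protein, by 2.34 ± 0.41. *Myc* rose by 1.01 ± 0.25, just past 2-fold. *Klf10*, a TGF-β-inducible zinc finger repressor, fell, at -1.20 ± 0.19. The best known of the class did not pass, *Jun* being at 0.66 ± 0.22, *Fos* at -0.41 ± 0.25 and *Egr1* at 0.12 ± 0.27, and *Atf3* was at -0.96 ± 0.38. *Fosl2* passed below 2-fold at 0.95 ± 0.13.

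Some genes that end signalling or destroy mRNA rose, and the counts stand against 0.917% rising and 0.243% falling among all genes. Of 14 regulators of mRNA decay (median 0.44) 5 rose and none fell. The largest rise was that of *Zc3h12a*, encoding Regnase-1, a nuclease that cleaves cytokine mRNAs, which also stands on the inhibitor list and rose 9.42-fold (95% interval 7.88 to 11.3). Its relative *Zc3h12c* rose by 1.71 ± 0.24, *Zfp36*, encoding tristetraprolin, which binds AU-rich elements, by 1.42 ± 0.14, *Zfp36l1* by 1.19 ± 0.26 and *N4bp1* by 1.18 ± 0.14. The gene of HuR, *Elavl1*, which stabilizes such mRNAs, did not pass, at 0.21 ± 0.15. Of 8 SOCS family genes, which block cytokine receptors, 3 rose. *Socs3* rose by 2.51 ± 0.20, *Socs1* by 1.32 ± 0.39 and *Cish* by 1.26 ± 0.18. Of 10 dual-specificity phosphatases, which inactivate MAP kinases, *Dusp2* and *Dusp1* rose by 2.01 ± 0.26 and 1.29 ± 0.24, whereas *Dusp7* fell, at -1.29 ± 0.27, and *Dusp5* fell below 2-fold, at -0.97 ± 0.17.

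AU-rich elements, the 3′ UTR sites bound by tristetraprolin, were frequent in the rising genes. The nonamer TTATTTATT was found in the 3′ UTR of 25 of 102 rising called genes at a baseMean of at least 100 (24.5%), 1 of 21 falling ones (4.76%) and 781 of 9563 genes in all (8.17%), taking for each gene the longest protein-coding transcript of GENCODE M21. The 3′ UTRs were not longer in rising genes, with a median of 894 bases in rising genes, 1747 in falling genes and 1129 overall. At least 2 copies, overlapping ones counted, were found in 9.80%, 0% and 1.80%. The first copy is shown for 6 of the rising genes, chosen after their values were seen to cover secreted mediators, enzymes, an inhibitor and tristetraprolin itself, with 8 bases on each side, the nonamer in capitals, 5′ to 3′ on the gene's strand.
Tnf 3′ UTR, chr17:35199691-35199715 (- strand): tgcacttaTTATTTATTatttattt
Cxcl2 3′ UTR, chr5:90905318-90905342 (+ strand): gagttcacTTATTTATTtatctatg
Ptgs2 3′ UTR, chr1:150105792-150105816 (+ strand): gaccatatTTATTTATTtatgtgaa
Acod1 3′ UTR, chr14:103055750-103055774 (+ strand): ctgaggaaTTATTTATTaactctgg
Nfkbia 3′ UTR, chr12:55489610-55489634 (- strand): accacgttTTATTTATTgtgctttt
Zfp36 3′ UTR, chr7:28376953-28376977 (- strand): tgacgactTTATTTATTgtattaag
The Tnf 3′ UTR held 5 copies in 764 bases and that of Cxcl2 4 in 1494 bases. Each of the other 4 shown held 1. *Zfp36*, which encodes the binding protein, thus carries the element itself. The genes of the response were also compact, in both directions. The median genomic span was 9.26 kb for rising and 9.24 kb for falling called genes and 23.8 kb for all genes at a baseMean of at least 100, and the median number of exons was 4.5, 3 and 9. Of the rising genes 52.9% spanned under 10 kb, of the falling genes 52.4%, and of all genes 23.5%. Gene structure was looked at after the fold changes were known, and no test was made of it.

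**Figure D3:**
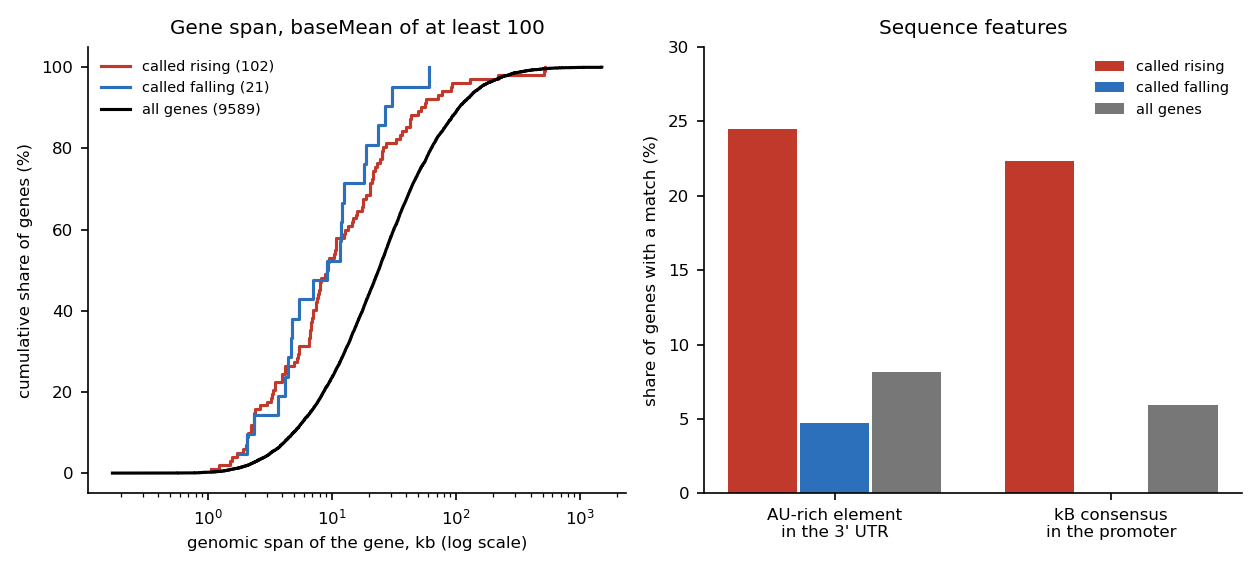
The left panel gives the cumulative share of genes against genomic span (kb, log scale) for 102 rising called, 21 falling called and 9589 genes in all at a baseMean of at least 100, and both called sets lie to the left, with medians near 9 kb against 23.8 kb. The right panel gives the share of genes with the AU-rich nonamer in the 3′ UTR (baseMean of at least 100) and with the κB consensus in the promoter (genes of any baseMean with a promoter entry), where rising genes stand at 24.5% and 22.3% and no falling gene holds the latter.

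Some receptors of the neutrophil surface rose. Of 26 chemoattractant and purine receptors 6 rose and of 20 adhesion genes 2, where 0.917% of all genes did. The largest rise was that of *Ccrl2*, a nonsignalling receptor that presents chemerin, 9.22-fold (95% interval 7.24 to 11.7). *Gpr84*, a receptor for medium-chain fatty acids, rose by 1.66 ± 0.17, *Fpr1*, the formyl peptide receptor, by 1.43 ± 0.22, *Hcar2*, the niacin receptor, by 1.40 ± 0.19, and the adenosine receptors *Adora2b* and *Adora2a* by 1.29 ± 0.23 and 2.78 ± 0.77. The abundant chemokine receptor genes *Cxcr2*, at -0.42 ± 0.14, *Ccr1*, at -0.42 ± 0.14, and *Cxcr4*, at -0.54 ± 0.19, did not pass. Of the receptors below 2-fold, *Ptafr*, for platelet-activating factor, and *P2ry13* rose by 0.74 ± 0.16 and 0.99 ± 0.24, and *S1pr4* fell, at -0.53 ± 0.14. Of the adhesion genes *Icam1*, a ligand of β2 integrins, rose 6.19-fold (95% interval 4.32 to 8.88) and *Vcam1* rose by 5.12 ± 1.26 at a baseMean of 48.0, and *Itga5* passed below 2-fold at 0.98 ± 0.16. The β2 integrin genes *Itgb2* and *Itgal* were at -0.08 ± 0.12 and -0.10 ± 0.13 and did not pass.

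The lists of cell survival, TNF receptor and inflammasome genes held 2 or 3 called genes each, where 1.16% of all genes tested were called. Of 25 survival and death genes (median 0.18) 2 were called, *Birc3*, encoding the ubiquitin ligase cIAP2, by 1.10 ± 0.13 and *Fas*, a death receptor, by 1.13 ± 0.30. *Cflar*, encoding the caspase-8 inhibitor FLIP, and *Pmaip1*, encoding NOXA, rose below 2-fold by 0.77 ± 0.15 and 0.70 ± 0.14. Of the near-identical *Bcl2a1b*, *Bcl2a1a* and *Bcl2a1d*, between which reads may be split, the first passed at 0.88 ± 0.23 and the others were at 0.85 ± 0.34 and 1.18 ± 0.48. *Mcl1*, the main survival gene of neutrophils, was at 0.38 ± 0.12 and did not pass. Of 17 TNF receptor and TRAF genes *Tifa*, *Fas* and *Traf1* were called, *Tifa* by 1.17 ± 0.20, and *Tnfrsf1b*, which encodes a TNF receptor, passed just below 2-fold at 0.97 ± 0.14. Of 16 inflammasome genes (median 0.04) *Nlrp3*, the sensor, rose by 1.81 ± 0.17 and *Mefv*, encoding pyrin, by 1.92 ± 0.50. *Casp1*, the protease that cuts interleukin-1β, was at 0.10 ± 0.23, *Pycard*, the adaptor ASC, at -0.42 ± 0.17 and *Gsdmd*, the pore former, at -0.04 ± 0.14, and none passed. *Txnip*, a thioredoxin-binding protein, fell below 2-fold, at -0.85 ± 0.12.

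The counts of called enzyme genes that follow stand against 1.16% of all genes tested. Of 19 genes of lipid mediators, nitric oxide and itaconate (median 0.12) 3 were called. *Acod1*, which makes itaconate, rose 9.29-fold (95% interval 7.23 to 11.9), *Pde4b*, which degrades cyclic AMP, rose 11.4-fold (95% interval 9.31 to 13.9), and *Ptgs2*, the inducible cyclooxygenase, rose 13.7-fold (95% interval 7.75 to 24.2). *Nos2*, the inducible nitric oxide synthase, was at 0.38 ± 0.27, and *Alox5ap* and *Lta4h*, abundant genes of leukotriene synthesis, were at -0.26 ± 0.16 and 0.05 ± 0.12, without passing. Of 26 antioxidant genes (median -0.03) *Sod2*, the mitochondrial superoxide dismutase, rose 4.51-fold (95% interval 3.75 to 5.43), and *Nfe2l2*, encoding NRF2, rose below 2-fold by 0.80 ± 0.14. *Osgin1*, an NRF2 target, fell, at -1.40 ± 0.23. The cytosolic *Sod1* and catalase gene *Cat* were at 0.09 ± 0.15 and 0.09 ± 0.14 and did not pass. Of 19 glycolysis genes only *Slc2a6*, a lysosomal hexose transporter, was called, at 1.01 ± 0.19. *Hk2*, at -0.14 ± 0.17, *Pfkfb3*, at -0.19 ± 0.12, and *Ldha*, at 0.11 ± 0.13, did not pass.

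Stress and growth-arrest lists held between 0 and 4 called genes each. *Ppp1r15a*, encoding GADD34, which lets translation resume, rose by 2.11 ± 0.18, the only one of 15 genes of the unfolded protein and integrated stress response to pass. Of 15 GADD45 and p53 target genes *Phlda1* rose by 3.21 ± 0.19, *Gadd45a* rose by 1.53 ± 0.24 and *Plk3* by 1.53 ± 0.32, whereas *Gadd45g* fell, at -2.37 ± 0.46. None of 10 heat shock genes passed, with log2 fold changes between -0.24 and 0.58. Of 25 genes of nucleolar ribosome biogenesis *Rrs1* alone was called, at 1.01 ± 0.17, where 1.16% of all genes were called. *Cdc42ep2*, an effector of the GTPase CDC42, rose by 3.52 ± 0.20, and *Cdc42* itself did not pass, at -0.20 ± 0.14.

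**Figure D4:**
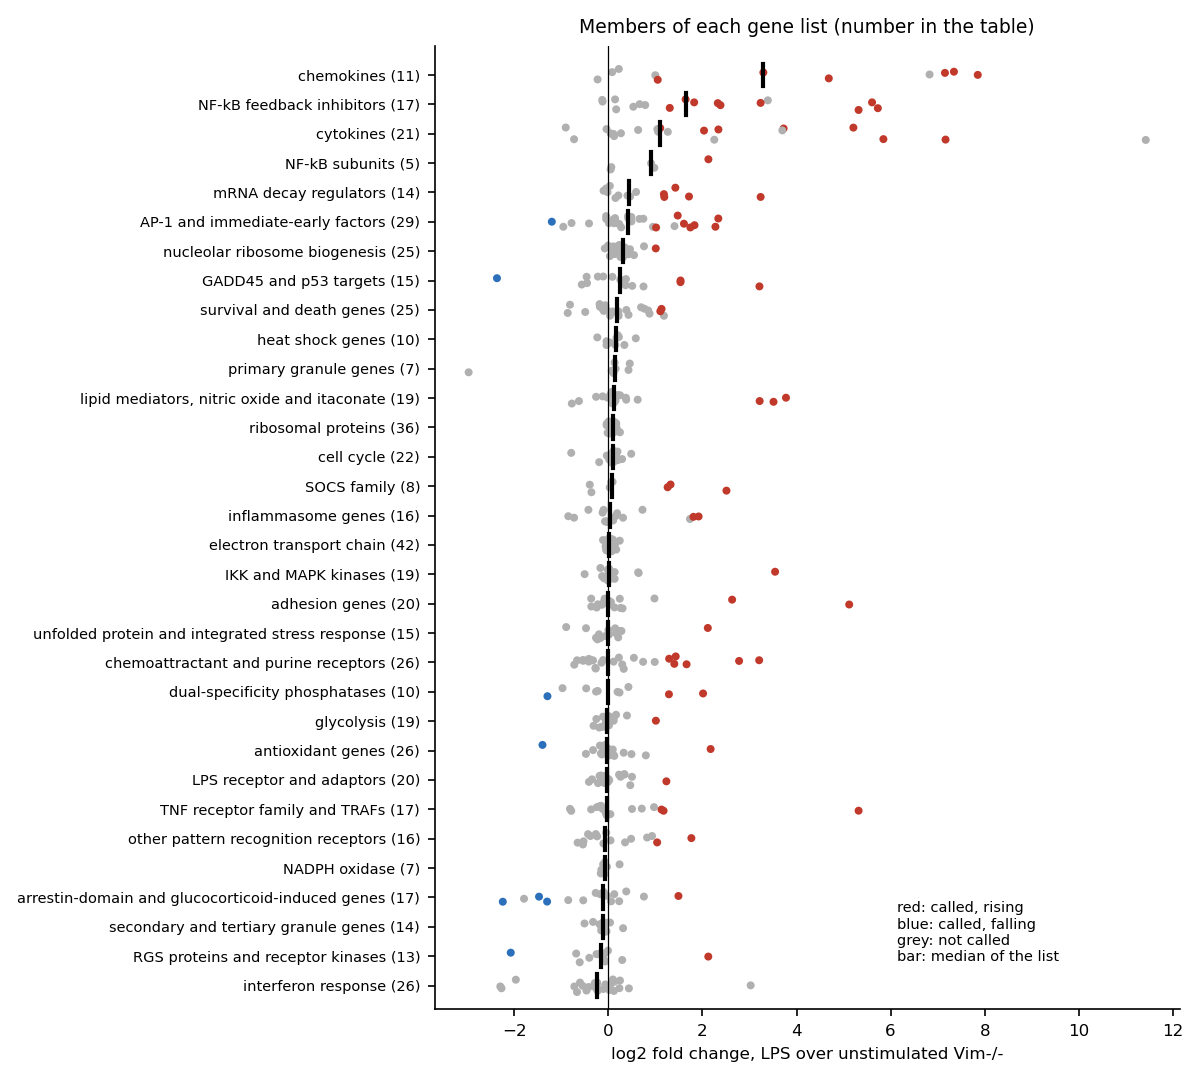
Rows are 32 of the 33 gene lists, ordered by the median of their members, and each point is the log2 fold change of 1 member for LPS over unstimulated Vim-/- neutrophils. Red points are called rising, blue called falling and grey not called, and the chemokine list has the highest median, 3.29, where the median over all genes at a baseMean of at least 100 was -0.01.

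For the effector apparatus of the neutrophil no change was detected at 1 h, and with 1.51% of all genes passing as rising and 0.698% as falling, lists of this size could hold none without standing apart. None of 7 genes of the NADPH oxidase, 7 of primary granules or 14 of secondary and tertiary granules passed, with medians of -0.08, 0.13 and -0.12. *Cybb*, the catalytic oxidase subunit, was at -0.03 ± 0.12, *Mpo*, myeloperoxidase, at 0.43 ± 0.50, *Ltf*, lactoferrin, at -0.15 ± 0.11 and *Mmp9*, gelatinase, at -0.33 ± 0.17. For *Ltf* the 95% interval ran from -0.37 to 0.07, so a change near 2-fold is outside it, whereas for *Elane* it ran from -1.45 to 1.60. None of 42 nuclear genes of the electron transport chain (median 0.02) and none of 36 ribosomal protein genes (median 0.09) passed, and of 22 cell cycle genes *Rrm2* passed below 2-fold, at 0.49 ± 0.13. Of the 13 mitochondrially encoded genes, a group picked out after their values were seen, 12 were below 0 and 2 passed below 2-fold, *COX1* at -0.41 ± 0.11 and *ND5* at -0.54 ± 0.11. The interferon list, of genes known to be induced by secreted interferon, held no called gene among 26 (median -0.24), where 1.16% of all genes were called, so the count does not set the list apart. *Stat2* fell below 2-fold, at -0.60 ± 0.18, and *Ifit1*, *Isg15* and *Irf7* were at 3.03 ± 2.22, -0.47 ± 0.47 and -0.23 ± 0.21, 5 of the 26 having a baseMean under 100. *Cxcl10*, itself inducible by both NF-κB and interferon, was on the chemokine list.

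The falling genes were fewer and changed less, and in a test of a change of over 2-fold only 1 of them, *Rgs2*, passed, compared with 45 rising genes. At a baseMean of at least 100 they numbered 21, and the 15 with the largest Wald statistics had log2 fold changes from -2.37 to -1.02. *Rgs2* (chr1:143999338-144004149), a GTPase-activating protein that ends signalling by Gq-coupled receptors, fell 4.21-fold (95% interval 3.30 to 5.38), at a baseMean of 12086. On the same list of 13 genes *Rgs1* rose by 2.12 ± 0.26, and *Rgs10* and *Rgs3* fell below 2-fold, at -0.68 ± 0.20 and -0.61 ± 0.19. *Cd300lb*, an activating receptor of myeloid cells, fell 3.07-fold (95% interval 2.39 to 3.95). Receptors were represented further by *Gpr146*, at -1.45 ± 0.20, and by the lysophosphatidic acid receptor gene *Lpar6*, at -1.13 ± 0.19, which lies within *Rb1*. Arrestin-domain and glucocorticoid-induced genes formed another list, with a median of -0.11. Over all genes tested 0.917% were called rising and 0.243% falling. Of its 17 members *Arrdc3*, *Tsc22d3* and *Zfp467* fell, at -1.47 ± 0.28, -1.30 ± 0.26 and -2.24 ± 0.59, and *Tsc22d1* rose, at 1.49 ± 0.22. *Tsc22d3* encodes GILZ, a protein induced by glucocorticoids that restrains NF-κB. Among the other members, *Fkbp5* and *Per1* were at -0.10 ± 0.13 and 0.13 ± 0.25 and did not pass. The remaining genes of the leading 15 were *Rab7b*, a GTPase of late endosomes, at -1.14 ± 0.19, the small GTPase gene *Rhob* at -1.15 ± 0.15, *Tmem86a* at -1.02 ± 0.18, the glycosyltransferase gene *B3gnt7* at -1.29 ± 0.24 and *Cbx8*, a Polycomb subunit, at -1.12 ± 0.24.

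**Figure D5:**
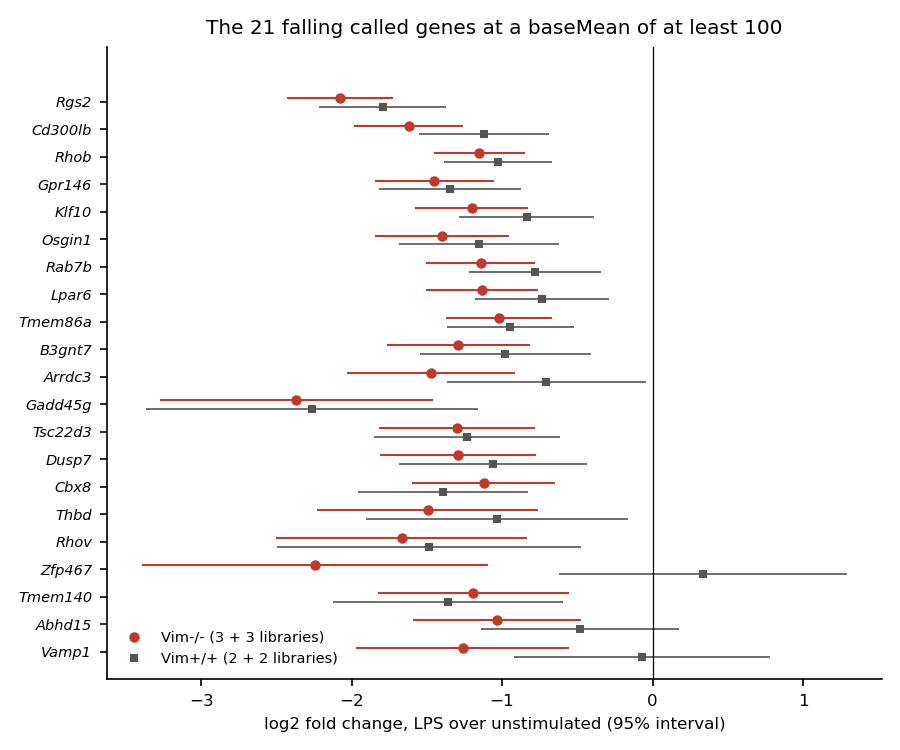
The 21 falling called genes at a baseMean of at least 100 are ordered by Wald statistic, with log2 fold changes of LPS over unstimulated in Vim-/- (red circles, 3 and 3 libraries) and Vim+/+ neutrophils (grey squares, 2 and 2 libraries) and 95% intervals. All 21 red intervals lie below 0, as the choice of the genes requires, and the Vim+/+ value lies above 0 for *Zfp467* alone.

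Of the 143 called genes 64 stood on none of the 33 lists. *Cd69*, a lectin that marks activated leukocytes and holds S1PR1 inside the cell, was the only one of them among the leading 15 risers and rose 21.8-fold (95% interval 16.9 to 28.0). Others, named after their values were seen, were *Trim13*, a ubiquitin ligase whose span overlaps *Dleu2* and *Kcnrg*, at 3.31 ± 0.24, *Zfp131* at 2.24 ± 0.19, *Rasgef1b* at 3.05 ± 0.42, *Marcksl1*, an actin-binding MARCKS relative at a baseMean of 16185, at 1.74 ± 0.16, *Icosl*, the ligand of the T cell costimulator ICOS, at 1.45 ± 0.32, and *Prdm1*, encoding the repressor Blimp-1, at 5.76 ± 1.34. A baseMean under 100 was found for 9 of the 113 rising and 9 of the 30 falling genes. Their fitted values were the extremes, *Cfb*, complement factor B, at 8.17 ± 1.74 and *Lmbr1* at -9.13 ± 2.75, and such folds rest on few reads in at least 1 of the groups and are not sizes to compare. Of the 142 called genes with a position, 27 overlap another gene of the table by their RefSeq spans.

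To see where the response differed between the genotypes, the log2 fold change in Vim-/- neutrophils was set against that in Vim+/+ neutrophils. The difference was tested for every gene, these comparisons sharing no library but 1 fit. The difference passed for 10 of 13091 genes (0.0764%), and for 4 of the 143 called genes. These were *Il1a*, *Tnfaip3*, *Il1b* and *Cxcl2*, each of which rose in both genotypes and more in Vim-/- neutrophils. The Vim+/+ libraries are labelled 40 and 72 and share no line number with Vim-/-, so genotype and line cannot be told apart. The log2 fold change of *Il1a* was 7.17 ± 0.27 in Vim-/- and 4.64 ± 0.28 in Vim+/+ neutrophils, a difference of 2.53 ± 0.39 (adjusted p = 7.92e-07). For *Tnfaip3* the pair was 5.60 ± 0.14 and 4.25 ± 0.16, with a difference of 1.35 ± 0.22 (adjusted p = 1.48e-06). For *Il1b* it was 5.21 ± 0.22 and 3.57 ± 0.27, with a difference of 1.64 ± 0.35 (adjusted p = 0.00607), and for *Cxcl2* it was 7.15 ± 0.24 and 5.46 ± 0.28, with a difference of 1.69 ± 0.37 (adjusted p = 0.0111). The genotypes also differed for these genes before LPS. Unstimulated, Vim-/- neutrophils held less of all 4, by log2 fold changes over Vim+/+ of -1.90 ± 0.31 for *Il1a* (adjusted p = 3.41e-08), -1.38 ± 0.25 for *Il1b* (adjusted p = 1.25e-06), -1.35 ± 0.27 for *Cxcl2* (adjusted p = 1.87e-05) and -0.77 ± 0.16 for *Tnfaip3* (adjusted p = 2.63e-05). With LPS the differences were 0.63 ± 0.25, 0.26 ± 0.24 and 0.34 ± 0.25 for the first 3 (adjusted p = 0.0814, 0.587 and 0.476), none of which passed, and 0.58 ± 0.15 for *Tnfaip3* (adjusted p = 0.00212), which did. These values come from the same libraries as the responses and are no independent evidence of them.

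For the other mediators the difference did not pass. It was 0.88 ± 0.23 for *Tnf* (adjusted p = 0.0991), 0.82 ± 0.21 for *Ccl3* (adjusted p = 0.0729), 0.69 ± 0.27 for *Nfkbiz* (adjusted p = 0.674) and 0.63 ± 0.61 for *Il6* (adjusted p = 0.979), and for *Tnf* the 95% interval of the difference ran from 0.43 to 1.33. *Nfkbia* gave 2.33 ± 0.17 and 2.38 ± 0.20, and the interval of its difference, from -0.58 to 0.47, includes 0. For the falling *Rgs2* the values were -2.07 ± 0.18 and -1.79 ± 0.21, with an interval from -0.83 to 0.27. *Zfp467* was at -2.24 ± 0.59 in Vim-/- and 0.34 ± 0.49 in Vim+/+ neutrophils, yet its difference of -2.58 ± 0.76 did not pass (adjusted p = 0.255), nor did that of *Myc*, at 1.01 ± 0.25 and -0.50 ± 0.31 (adjusted p = 0.0991). For these genes a call in 1 genotype and not in the other is not shown to be a different response. The fit of the 10 libraries used 4 groups and 4 covariates of unwanted variation, which leaves 2 residual degrees of freedom, and the test takes the fitted SE as given.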

How the data were processed

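RNA from HoxB8-derived neutrophils was polyA-selected and sequenced, and reads were trimmed with Cutadapt 4.4 and aligned to mm10 with STAR 2.7.10b (names and versions from the submitters' processing notes and the methods). The annotation and the use of strand in counting are not given in the sources used here. The authors fitted DESeq2 1.26.0 with 4 RUVSeq covariates to all 10 libraries and deposited 4 tables of comparisons. Per the file headers these hold, for each gene, baseMean (a mean normalized count, treated here as a signal), the log2 fold change and its SE, the Wald statistic (a score), the p-value and the adjusted p-value. The SE, adjusted p and fold change of the LPS comparison in Vim-/- neutrophils are those of the authors' deposited table, and no count model was refitted, as the tables hold no value per library. RUV covariates estimated from the same libraries can absorb part of a response or narrow its SE, which was not tested.

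Libraries were grouped by their labels. From the table, 95% intervals were taken as the fold change and its normal interval, calls as changes of more than 2-fold with an adjusted p under 0.05, and the difference between genotypes as the Vim-/- minus the Vim+/+ log2 fold change, with the SEs added in squares, a normal p-value (two-sided) adjusted by the Benjamini-Hochberg method over all 13091 genes. The calculations were tested on data simulated from the deposited SEs, which checks the arithmetic and not whether those SEs are right. Python 3.11.15, numpy 2.4.6, scipy 1.17.1, pandas 2.3.3 and matplotlib 3.10.9 were used. Promoters and gene spans are from RefSeq on GRCm38.p6, and 3′ UTRs and exons from GENCODE M21.

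The comparison and the gene lists were chosen with earlier results of these data known, so counts over lists are descriptions. Genes were named by these rules: the 15 rising and 15 falling called genes of largest Wald statistic and the 3 highest and 3 lowest fold changes at a baseMean of at least 100, the called members of each list with up to 6 members not called, chosen by baseMean or as the list's defining receptor or enzyme, the genes past the test of the difference, and *Vim*. Further genes named below 2-fold or as not passing were chosen after their values were seen. Alternatives were the thresholds, the filter on low counts, the scaling and null distribution of the statistic, a test against a 2-fold change, and the SE of the difference. p-values measure the spread between libraries of both genotypes that was left after the covariates of the fit. They do not measure the spread between the Vim-/- lines alone.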

Additional observations from a re-analysis of the deposited data

Results flagged for a closer look

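The LPS response differed between genotypes, by the test of the difference itself, for 10 of 13091 genes. For 4 of them, described above, the rise was larger in Vim-/- neutrophils, by a log2 of 2.53 for *Il1a*, 1.35 for *Tnfaip3*, 1.64 for *Il1b* and 1.69 for *Cxcl2*. *Pogk* differed by 4.47 (adjusted p = 0.0344), its log2 fold change being 0.65 in the Vim-/- and -3.82 in the Vim+/+ cells. It did not pass among genes at a baseMean of at least 100 alone (adjusted p = 0.0543) or with the SEs of the genotype comparisons (adjusted p = 0.198).

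The other 5 genes have a baseMean under 100, and their fitted values are no sizes of effect. The difference was 31.60 for *1700001K23Rik*, 27.06 for *LOC102637806*, 26.62 for *Abcc3*, -7.36 for *Cd46* and -6.82 for *Zfp930*. In the first 3 of these the fitted log2 fold change in Vim+/+ neutrophils was far below 0.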

How the results depend on the processing

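The 143 called genes became 272 without a fold threshold (186 rising, 86 falling), 46 in a test of a change of over 2-fold (45 and 1), and 87 at a baseMean of at least 1000 (74 and 13), an alternative chosen after seeing the data. At an adjusted p under 0.01 the falling genes became 18. The rising share of calls was 79.0%, and 68.4% without the fold threshold and 97.8% in the test of over 2-fold. Called list members fell from 79 to 35 in that test. Of the 87 called genes named by rule, 5 (*Ccl4*, *Ccl5*, *Traf1*, *Socs1* and *Adora2a*) were lost at an adjusted p under 0.01 and 51 in the test of over 2-fold. The genes past the test of the genotype difference became 4 at a baseMean of at least 100, and 8 with the SEs of the genotype comparisons. No paired analysis was possible because the deposited tables hold no value per library, and for the same reason no library could be left out. Depth is unknown. Genes with a baseMean under 100 had a median SE of 1.22, so only very large changes could be called there.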
